A study of Homo sapiens with 6 samples.

Results

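The autophagy machinery was examined as 40 genes, taken as a fixed list of the proteins that start, build and load the autophagosome. All 40 were found among the 18365 genes of the array by the single gene symbol of a probe, 39 of them under their current symbol and ATG101 under its older symbol C12orf44. Where a gene had several probes, the brightest on average was read. RNA came from LX2, an established line of human stellate cells, which store retinoids in healthy liver and lay down collagen in fibrosis. Cells exposed to Syy gave 3 arrays and control cells gave 3 arrays. Syy is a code name for a small compound, said in the series' design text to inhibit secretion by these cells. The sources used here give no dose, no time of exposure and no vehicle. Everything was measured in 1 cell line, and nothing in the labels says that the replicates were separate cultures, so the spread behind each p-value may be technical.

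Autophagy encloses cytoplasm, organelles or protein aggregates in a double membrane and delivers them to lysosomes. The ULK kinase complex starts the process, a lipid kinase complex around PIK3C3 and BECN1 marks the growing membrane with phosphatidylinositol 3-phosphate (PI3P), and a pair of ubiquitin-like conjugation systems attaches the small ATG8 proteins (the LC3 and GABARAP families) to it. Cargo receptors then tie the load to the ATG8 proteins. In stellate cells autophagy is known for the breakdown of retinoid-bearing lipid droplets during activation. Transcript levels do not measure the flow of material through the pathway.

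Values are log2(intensity + 16) after quantile normalization of the 6 arrays, called normalized log2 units below, and a gene was called at an adjusted p under 0.05 (limma, Benjamini-Hochberg over all 18365 genes). A change of a dim gene is understated on this scale. The probe median, the middle of all 31741 probe means, was 5.31. COL1A1 read 11.80 to 12.39 in Syy cells and 10.87 to 11.04 in control cells, and the summed deposited intensity, which is not quantile normalized, of 11 stellate cell markers was 51858 to 55867 in Syy cells and 35942 to 40404 in control cells. VIM made up most of these sums (38945 to 41218 in Syy cells and 28786 to 32662 in control cells). Of the 11 stellate cell markers, 4 were called, all higher, and 4 stayed below the probe median on every array. The like sums of 6 macrophage markers were 2735 to 3400 in Syy cells and 1618 to 1935 in control cells. CD14 made up most of them (2346 to 3015 in Syy cells and 1314 to 1614 in control cells) and was the only one of the 6 called, and 3 were below the probe median on every array. The sums of 5 endothelial markers were 95.2 to 160.9 in Syy cells and 49.7 to 122.5 in control cells, and those of 5 biliary markers 1117 to 1478 in Syy cells and 992 to 1178 in control cells. The 10 hepatocyte markers summed to 271 and 410 on Syy arrays 1 and 2 and 22174 on Syy array 3, against 330 to 586 on control arrays, and on Syy array 3 all 10 exceeded the average of Syy arrays 1 and 2 by more than 1 normalized unit. No autophagy gene was that far above that average on Syy array 3. EPG5, the only one that far below it, is among the genes not called. APOA2 made up most of the hepatocyte sum on Syy array 3 (16843). SERPINA1 was the only one of the 10 hepatocyte markers called, and it was higher on every Syy array. Its deposited intensities were 50.3, 108.3 and 204.8 in Syy cells, against 21.7, 19.3 and 16.6 in control cells. The part of these markers in the results was not tested.

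Of the 40 genes, 6 rose with Syy (ULK1, ATG13, BECN1, WIPI1, MAP1LC3B and OPTN), 9 fell (ULK2, ATG101, PIK3C3, ATG5, ATG12, ATG16L2, GABARAPL1, TAX1BP1 and BNIP3L) and 25 did not pass. The called share was 37.5%, against 22.4% of all genes. Higher genes were 15.0% of the list and 11.0% of all genes, and lower genes were 22.5% of the list and 11.5% of all genes. Autophagy genes were mostly bright, with 38 of 40 above the probe median. When only the 10913 genes above that median were tested, 16 of 38 autophagy genes passed (42.1%), against 37.8% of those genes. These 16 were 8 higher and 8 lower, against 2041 higher and 2080 lower among the 10913. In the fit over all genes, 15.8% of the 38 were higher, against 16.9% of the genes above that median. Lower genes were 21.1% of the 38, against 16.9%. The median log2 fold change of the list was -0.04, against 0.00 for all genes. Its median size without regard to sign was 0.30, against 0.16 for all genes and 0.27 for the genes above the probe median.

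**Figure D1:**
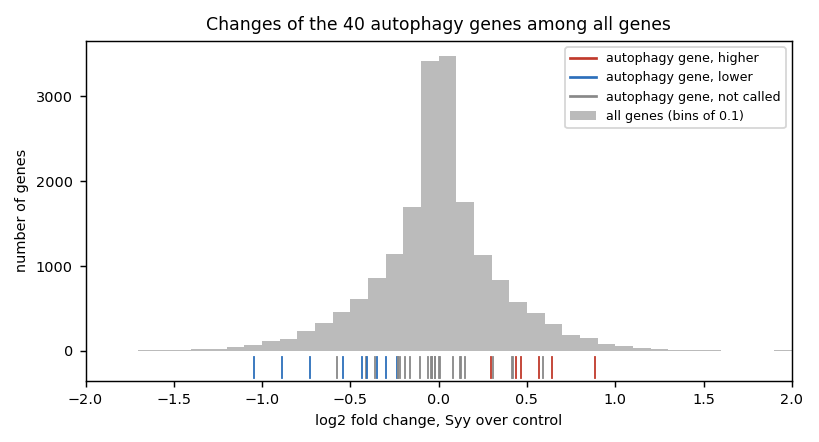
Log2 fold changes, Syy over control, of all 18365 genes as grey bars (number of genes per bin of 0.1), with a tick below the axis for each of the 40 autophagy genes, red where higher, blue where lower and grey where not called. The ticks run on both sides of 0, with BNIP3L farthest to the left at -1.05 and ATG13 farthest to the right at 0.89.

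In 23 of the 40 genes the 3 Syy values lay wholly beyond the 3 control values, 8 above and 15 below, a share of 57.5% against 38.3% of all genes. Among genes above the probe median the shares were 57.9% of the autophagy genes and 51.7% of all. At least 2-fold changes were rare in the list and over all genes. BNIP3L was the single called gene of the 40 past that size, against 300 of 18365 genes (1.63%). Among genes above the probe median, 296 of 10913 were called and past that size. Each complex held genes that changed in different directions or did not pass, as the plot of all 40 genes by role shows.

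**Figure D2:**
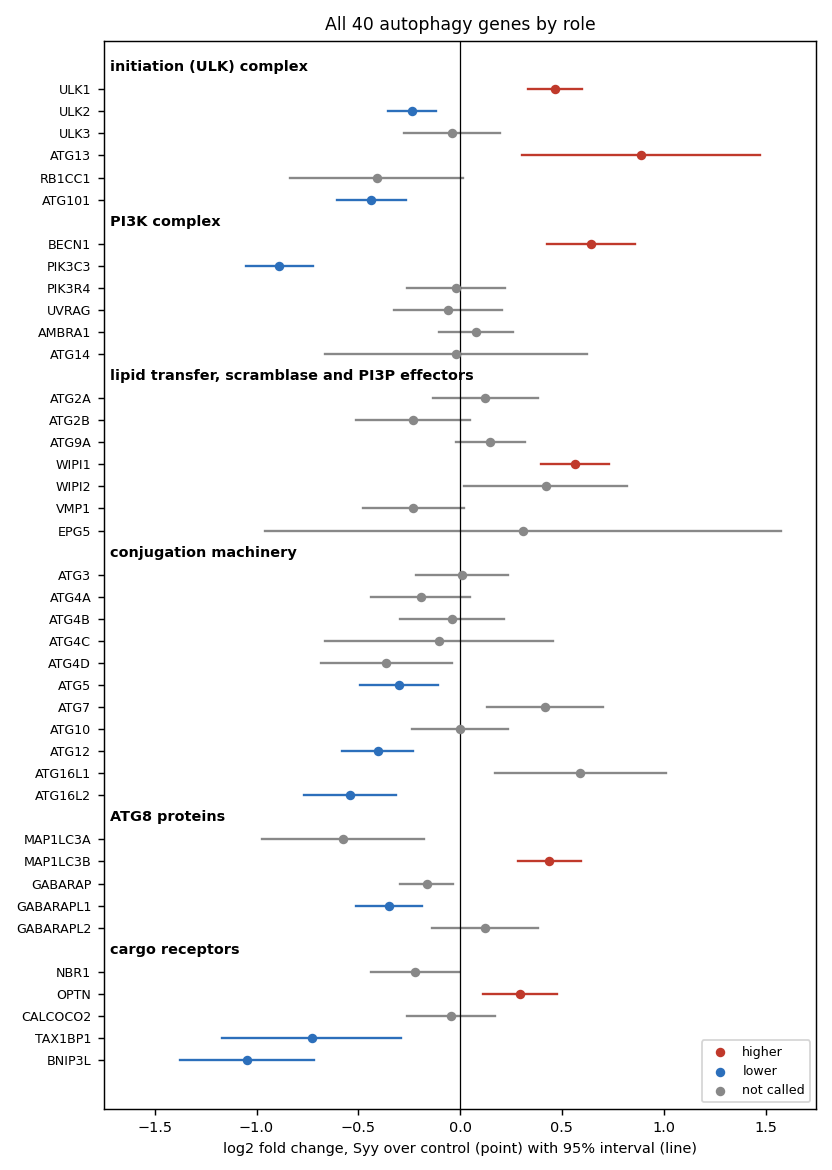
Log2 fold change, Syy over control, of each of the 40 autophagy genes (point) with its 95% interval from the moderated limma fit (line), grouped by role. The ULK and PI3K complexes, the ATG8 proteins and the cargo receptors each have at least 1 red (higher) and 1 blue (lower) gene, while the conjugation machinery has 3 lower genes and no higher one.

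The ULK complex, which senses starvation signals and starts autophagy, had 2 of 6 genes higher and 2 lower. ULK1, its main kinase, read 8.45, 8.36 and 8.42 in Syy cells, against 7.89, 7.94 and 8.0 in control cells. The groups were apart, and ULK1 rose 1.38-fold (log2 fold change 0.47 ± 0.05 SE, adjusted p = 0.00457). The related kinase ULK2 read 5.59, 5.54 and 5.51 in Syy cells, just below the 5.75, 5.77 and 5.82 of control cells. It fell by 0.24 (adjusted p = 0.0211) from a probe near the middle of the range, and this call did not hold without Syy replicate 2 (adjusted p = 0.0601) or control replicates 1, 2 or 3 (0.0540, 0.0632 and 0.0651). It was also lost after median centring (adjusted p = 0.0971) and on the deposited scale, where the change was -0.07 (adjusted p = 0.627), and with the mean over its probes it was -0.09 (0.228).

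ATG13, the regulatory subunit that links ULK1 to the rest of the complex, read 7.74, 7.61 and 7.48 in Syy cells, against 6.18, 6.99 and 6.99 in control cells. Control array 1 lay well below the other controls, but every control value was under every Syy value. ATG13 rose 1.85-fold (0.89 ± 0.24 SE, adjusted p = 0.0467). The call was lost without Syy replicates 1, 2 or 3 (adjusted p = 0.133, 0.124 and 0.0844) and without control replicates 2 or 3 (0.0753 and 0.0738). Without control replicate 1 the change was smaller, 0.62, and passed. A second probe of ATG13, also above the probe median, read 6.82, 7.01 and 6.00 in Syy cells and 6.93, 6.60 and 6.70 in control cells. That probe gave a change of -0.13, and the mean over both probes gave 0.38 (adjusted p = 0.195), so the rise rests on 1 of 2 probes.

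ATG101, which stabilises ATG13, went the other way. It read 12.58, 12.52 and 12.43 in Syy cells, against 12.87, 13.03 and 12.94 in control cells, and was 1.35-fold lower (-0.44 ± 0.07 SE, adjusted p = 0.010). RB1CC1, the scaffold of the complex, read 6.44, 6.96 and 6.97 in Syy cells and 7.32, 7.00 and 7.28 in control cells, lower in every Syy array but not called (-0.41, adjusted p = 0.154). ULK3, a kinase also linked to autophagy and Hedgehog signalling, had overlapping groups and a change of -0.04, with a 95% interval of -0.28 to 0.20.

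In the PI3K complex the regulatory subunit and the lipid kinase changed in opposite directions. BECN1, the core regulatory subunit Beclin 1, read 10.48, 10.71 and 10.44 in Syy cells, against 9.83, 9.90 and 9.97 in control cells. It rose 1.56-fold (0.64 ± 0.09 SE, adjusted p = 0.00689). PIK3C3, the kinase that makes PI3P, read 6.39, 6.46 and 6.50 in Syy cells, against 7.44, 7.25 and 7.32 in control cells. It was 1.85-fold lower (-0.89 ± 0.07 SE, adjusted p = 0.00226), and it passed in each of the 14 alternatives run, with log2 fold changes between -1.03 and -0.63. No other gene of this complex passed. PIK3R4, the membrane-anchored partner of PIK3C3, changed by -0.02 (95% interval -0.26 to 0.22), UVRAG, the endosomal subunit, by -0.06 (-0.33 to 0.21) and AMBRA1, a BECN1 regulator, by 0.08 (-0.10 to 0.26). ATG14, which directs the complex to autophagosome formation, varied widely within groups, from 9.25 to 10.07 among Syy arrays and 9.36 to 10.04 among control arrays. Its interval of -0.67 to 0.62 leaves a change of either sign possible.

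Among the 7 genes that supply and shape the membrane, WIPI1 was the only one called. WIPI1, which binds PI3P on the forming autophagosome, read 9.54, 9.47 and 9.37 in Syy cells, against 8.81, 8.94 and 8.93 in control cells. It rose 1.48-fold (0.57 ± 0.07 SE, adjusted p = 0.00498), and like PIK3C3 it passed in all 14 alternatives, with log2 fold changes between 0.52 and 0.85. Its relative WIPI2, which recruits ATG16L1, read 11.15, 10.97 and 11.46 in Syy cells and 10.68, 10.62 and 11.01 in control cells, where the highest control lay above the lowest Syy value. It was not called on this probe (0.42, adjusted p = 0.127). WIPI2 had 3 further probes, with changes of 0.09, 0.53 and 0.31, and the mean over its 4 probes gave 0.34 with an adjusted p of 0.0105.

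The promoters of WIPI1 and PIK3C3 are printed because these were the rise and the fall called in every alternative run. They are RefSeq sequences of 250 bases before to 50 after the outer start of the gene, 5′ to 3′ on the strand of the gene. They were searched on both strands for the E-box CACGTG and for TCACGTGA, the core of the CLEAR element that the factor TFEB is known to bind, which contains the E-box. Neither sequence holds either motif, so no base is in capitals.
WIPI1 (GRCh38.p14 chr17:68457447-68457746, minus strand): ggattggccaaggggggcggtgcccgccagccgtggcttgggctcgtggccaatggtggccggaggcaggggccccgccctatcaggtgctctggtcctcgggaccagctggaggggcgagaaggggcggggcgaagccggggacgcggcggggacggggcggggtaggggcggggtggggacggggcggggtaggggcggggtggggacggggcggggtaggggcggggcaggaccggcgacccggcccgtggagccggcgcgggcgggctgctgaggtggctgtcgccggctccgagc
PIK3C3 (GRCh38.p14 chr18:41954984-41955283, plus strand): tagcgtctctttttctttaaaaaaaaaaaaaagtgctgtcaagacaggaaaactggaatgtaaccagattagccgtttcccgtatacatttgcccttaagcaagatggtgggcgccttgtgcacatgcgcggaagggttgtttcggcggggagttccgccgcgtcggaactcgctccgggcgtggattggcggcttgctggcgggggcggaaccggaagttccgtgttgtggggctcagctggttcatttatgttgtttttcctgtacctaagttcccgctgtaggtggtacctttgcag

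The lipid transfer proteins ATG2A and ATG2B read 0.12 and -0.23, and the scramblase ATG9A, which brings membrane to the site, read 0.15 (95% interval -0.02 to 0.32). VMP1, an endoplasmic reticulum scramblase, read 5.19, 5.39 and 5.55 in Syy cells and 5.57, 5.68 and 5.56 in control cells, close to the probe median, and did not pass (-0.23, adjusted p = 0.168). EPG5, a tether for fusion with lysosomes, gave 5.89, 6.62 and 4.91 in Syy cells and 5.0, 6.20 and 5.29 in control cells. This was the widest spread within groups among the 40 genes, and its interval was -0.96 to 1.58.

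The conjugation machinery attaches ATG12 to ATG5 and then ATG8 proteins to lipid. Of its 11 genes, 3 fell, none rose by the test and 8 did not pass. ATG12, the ubiquitin-like protein, read 8.48, 8.35 and 8.35 in Syy cells, against 8.82, 8.70 and 8.88 in control cells. It was 1.32-fold lower (-0.41 ± 0.07 SE, adjusted p = 0.0130), and its other probes read -0.52 and -0.19. The call was lost without control replicate 1 (adjusted p = 0.0509), after median centring (-0.25, adjusted p = 0.0765) and on the deposited scale (-0.12, adjusted p = 0.352). ATG16L2, a homologue of the membrane-targeting subunit ATG16L1, read 8.44, 8.27 and 8.27 in Syy cells, against 8.87, 8.73 and 9.01 in control cells. It was 1.46-fold lower (-0.54 ± 0.09 SE, adjusted p = 0.0121). In the values as deposited its change was -0.25 (adjusted p = 0.0772).

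ATG5, the acceptor of ATG12, was read from a probe near the floor. Its deposited intensities were 3.0, 4.2 and 4.8 in Syy cells, against 9.8, 6.1 and 7.4 in control cells. On the normalized scale it was 4.20, 4.32 and 4.40 in Syy cells and 4.65, 4.50 and 4.66 in control cells, lower on every Syy array by a few intensity units. It fell by 0.30 (adjusted p = 0.0436), but its size ran from -1.20 with no offset (adjusted p = 0.0624) to -0.09 with an offset of 64 (0.0666). The call was also lost on the deposited scale (-0.25, 0.0895), without Syy replicates 1 or 2 (0.0906 and 0.110) and without control replicates 1, 2 or 3 (0.143, 0.0551 and 0.129).

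ATG16L1 and ATG7 lay higher on every Syy array without passing. ATG16L1 read 8.08, 7.86 and 7.72 in Syy cells, against 6.96, 7.48 and 7.44 in control cells (0.59, adjusted p = 0.0581). ATG7, the E1-like enzyme that activates ATG12 and the ATG8 proteins, read 9.19, 8.88 and 8.95 in Syy cells, against 8.42, 8.65 and 8.71 in control cells (0.42, adjusted p = 0.0522). Both passed after median centring (0.74 and 0.58, adjusted p = 0.0106 and 0.0118), on the deposited scale and among the genes above the probe median. The E2-like enzymes ATG3 and ATG10 gave 0.01 (95% interval -0.22 to 0.24) and 0.00 (-0.24 to 0.24). The second probe of ATG3 read -0.01. Of the proteases that process ATG8 proteins, ATG4A, ATG4B and ATG4C read -0.19, -0.04 and -0.11, with ATG4C below the probe median. ATG4D read 8.17, 8.15 and 8.08 in Syy cells and 8.21, 8.61 and 8.67 in control cells. It was not called (-0.36, adjusted p = 0.106), and it passed without control replicate 1, the control nearest the Syy values (-0.51, adjusted p = 0.0174).

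RefSeq gave a window of 300 bases for 34 of the 40 genes, and in 30 of these it stood at the outer start of the gene. Those of ATG101, BECN1, ATG4A and ATG5 began within the gene, at the start of another transcript, and were left out of the counts. CACGTG occurred in 3 of the 30 (10%), in ULK3, ATG14 and ATG3, and in 7.40% of the 24882 windows of that length at a gene's outer start. TCACGTGA occurred in 1 (3.33%), ATG3, against 1% of those windows. None of the 11 called genes among the 30 held either motif in this window. With shares as low as 7.40% and 1% over all windows, 11 windows are too few to show a lack. The ATG3 promoter is shown as the one that carries the longer motif, with each CACGTG in capitals, the second of which lies within TCACGTGA.
ATG3 (GRCh38.p14 chr3:112561913-112562212, minus strand): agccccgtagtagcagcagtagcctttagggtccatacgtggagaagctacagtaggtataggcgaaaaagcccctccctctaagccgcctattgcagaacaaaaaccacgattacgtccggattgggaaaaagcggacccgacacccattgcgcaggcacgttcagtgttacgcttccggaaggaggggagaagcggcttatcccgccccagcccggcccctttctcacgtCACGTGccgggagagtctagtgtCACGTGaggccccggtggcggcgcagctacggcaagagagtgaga

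The 5 ATG8 proteins, the ubiquitin-like tags on the autophagosome membrane, did not move as a family. MAP1LC3B, the LC3 form most used as an autophagosome marker, read 7.55, 7.40 and 7.57 in Syy cells, against 7.09, 7.08 and 7.04 in control cells. It rose 1.36-fold (0.44 ± 0.06 SE, adjusted p = 0.00759). GABARAPL1, a GABARAP form first described as an estrogen-regulated gene, read 6.22, 6.11 and 6.15 in Syy cells, against 6.41, 6.57 and 6.56 in control cells. It was 1.27-fold lower (-0.35 ± 0.07 SE, adjusted p = 0.0166). That call was lost without Syy replicate 2 (adjusted p = 0.0531) or control replicates 2 or 3 (0.0625 and 0.0623), after median centring (-0.23, adjusted p = 0.0668) and on the deposited scale (-0.10, adjusted p = 0.434).

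MAP1LC3A, another LC3 form, read 11.17, 11.76 and 11.28 in Syy cells, against 12.00, 11.89 and 12.05 in control cells. Every Syy value was the lower, but the gene did not pass (-0.58, adjusted p = 0.0534). It passed without Syy replicate 2, the highest Syy array (-0.76, adjusted p = 0.0134), after median centring (-0.60, 0.0299) and among the genes above the probe median (0.0245). Its second probe read -0.22. GABARAP changed by -0.16 (95% interval -0.29 to -0.03, adjusted p = 0.0783) and GABARAPL2 by 0.12 (-0.14 to 0.38). MAP1LC3B2, a near-identical copy of MAP1LC3B, has a probe of its own, which read -0.06 (adjusted p = 0.749). Probe sequences were not used here, so signal shared between these copies was not checked and the value of MAP1LC3B is uncertain to that extent.

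Cargo receptors, which bind both ubiquitin or an organelle and an ATG8 protein, included the largest change of the list. BNIP3L, also called NIX, a mitophagy receptor of the outer mitochondrial membrane, read 7.98, 8.42 and 8.01 in Syy cells, against 9.28, 9.11 and 9.16 in control cells. It was 2.07-fold lower (-1.05 ± 0.13 SE, adjusted p = 0.00571). TAX1BP1, a receptor for ubiquitinated cargo, read 7.22, 7.55 and 7.91 in Syy cells, against 8.35, 8.35 and 8.17 in control cells. It was 1.66-fold lower (-0.73 ± 0.18 SE, adjusted p = 0.0358), with a wider spread in Syy cells than in control cells. Its call was lost without Syy replicates 1 or 2 (adjusted p = 0.0560 and 0.102), without control replicates 1, 2 or 3 (0.119, 0.118 and 0.0846), after median centring (-0.58, 0.0757) and on the deposited scale (-0.45, 0.198).

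OPTN, which recruits damaged mitochondria and bacteria, read 8.88, 9.0 and 8.87 in Syy cells, against 8.61, 8.52 and 8.73 in control cells. It rose 1.23-fold (0.29 ± 0.07 SE, adjusted p = 0.0390). The call was lost without Syy replicates 1, 2 or 3 (adjusted p = 0.0717, 0.104 and 0.0633) and without control replicates 1 or 2 (0.113 and 0.112). The second probe of OPTN gave -0.27, and the mean over both gave 0.01 (adjusted p = 0.942), so its probes disagree in sign. NBR1, a receptor related to p62, read -0.22 with all Syy values below all control values and did not pass (adjusted p = 0.137). CALCOCO2, also known as NDP52, read -0.04 (95% interval -0.26 to 0.17).

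**Figure D3:**
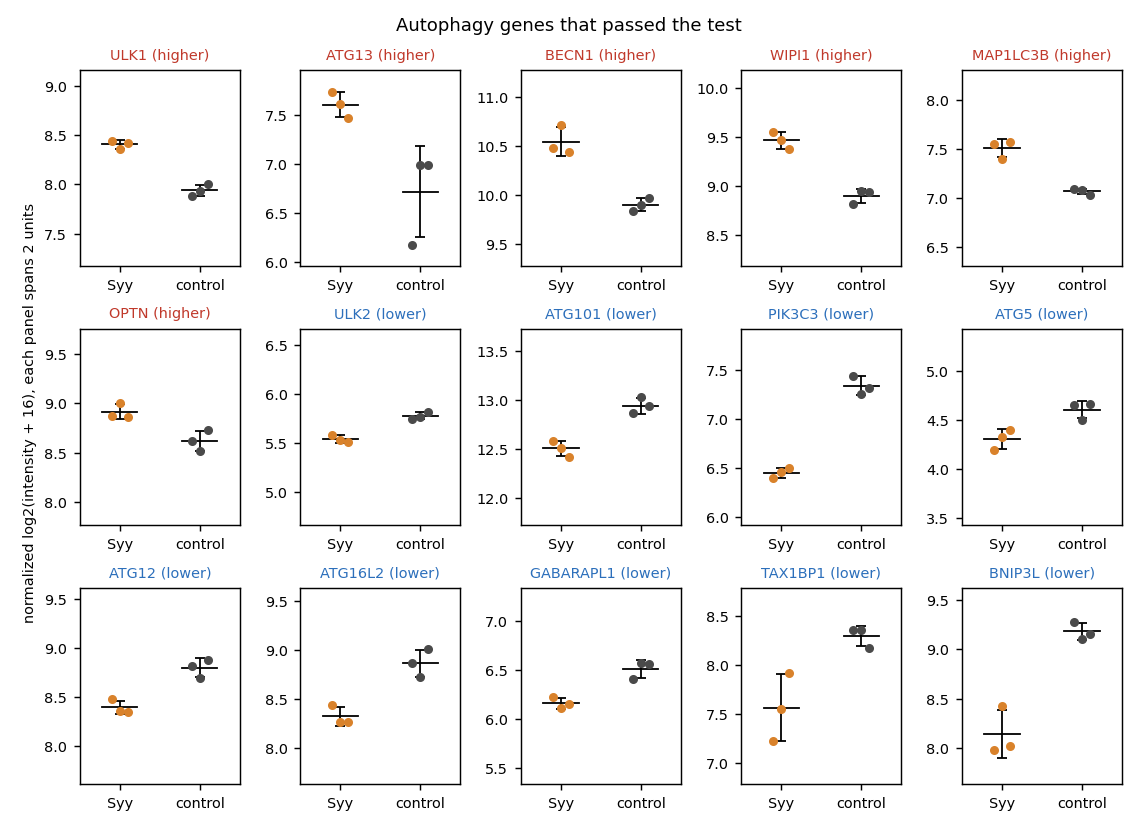
Normalized log2(intensity + 16) of the 15 called autophagy genes on each Syy array (orange, left) and control array (dark grey, right), with the group mean as a bar and 1 SD as the error bar; every panel spans 2 units. The groups are apart in every panel, and the scatter is widest in the Syy arrays of TAX1BP1 (SD 0.34) and the control arrays of ATG13 (SD 0.47).

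A further 73 genes that control autophagy, feed cargo to it or carry out fusion with lysosomes were read from the same fit, of which 69 could be placed on the array. Of these, 8 rose, 12 fell and 49 did not pass, so 29.0% were called, against 22.4% of all genes. Higher genes were 11.6% and lower genes 17.4% of them, against 11.0% and 11.5% of all genes. Their median log2 fold change was 0.00. When only genes above the probe median were tested, 11 of the 57 other autophagy genes kept rose and 11 fell. Of all 10913 genes above that median, 2041 rose and 2080 fell, a called share of 37.8%. The 15 measured cargo receptors and mitophagy genes outside the list of 40 had 6 lower (SQSTM1, TBK1, FUNDC1, SEC62, RETREG1 and NCOA4), or 40%. The lower share was 11.5% of all genes and 16.9% of genes above the probe median. Of the 15, 4 were below that median, among them RETREG1 (deposited intensities 7.4 to 9.9 in Syy cells and 10.1 to 13 in control cells). Deposited intensities of NCOA4 overlapped, at 34.6 to 41 in Syy cells and 34 to 59.6 in control cells. None of the 15 was higher on the probe read for each gene. Other bright probes did pass as higher in a fit over all probes, for RTN3 (0.38 and 0.77, adjusted p = 0.00976 and 0.00684, beside 0.33 on its brightest probe) and PHB2 (0.70, adjusted p = 0.0109, beside 0.06). SQSTM1, which encodes the cargo receptor p62 and is also a target of the oxidative stress factor NRF2, read 10.02, 10.15 and 10.02 in Syy cells, against 11.33, 11.53 and 11.24 in control cells. It was 2.46-fold lower (-1.30 ± 0.09 SE, adjusted p = 0.00219), a larger fall than that of any of the 40 genes.

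TBK1, the kinase that phosphorylates OPTN and p62, read 7.75, 7.82 and 8.03 in Syy cells, against 8.94, 8.87 and 8.96 in control cells, 2.08-fold lower (adjusted p = 0.00235). FUNDC1, a mitophagy receptor, read 10.13, 10.35 and 10.38 in Syy cells, against 11.06, 10.89 and 10.84 in control cells, and was 1.56-fold lower (adjusted p = 0.00863). BNIP3, the close relative of BNIP3L, did not follow it. BNIP3 read 8.88, 9.08 and 8.99 in Syy cells and 8.86, 8.83 and 9.09 in control cells (0.06, 95% interval -0.18 to 0.29, adjusted p = 0.730); the difference between the genes was not tested. SEC62, a receptor for endoplasmic reticulum, read 7.26, 7.33 and 8.06 in Syy cells, against 8.44, 8.36 and 8.45 in control cells (-0.86, adjusted p = 0.0397). Its call was lost without Syy replicates 1 or 2 (adjusted p = 0.106 and 0.119), without control replicates 1, 2 or 3 (0.123, 0.110 and 0.122), after median centring (0.0615) and on the deposited scale (0.117). It was also lost with the mean over the 3 probes of SEC62. A second probe read -0.75 and was not called in a fit over all probes (adjusted p = 0.0797). The remaining probe, below the probe median, read 0.00.

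TFEB, a transcription factor of lysosomal and autophagy genes, read 8.69, 8.60 and 8.64 in Syy cells, against 9.58, 9.38 and 9.49 in control cells. It was 1.79-fold lower (-0.84 ± 0.07 SE, adjusted p = 0.00237). A second bright probe of TFEB read -0.23 and was not called in a fit over all probes (adjusted p = 0.235), and the mean over its 3 probes gave -0.38, which passed. Its relative MITF fell by 0.50 on its brightest probe, while 3 dimmer probes, all below the probe median, read -0.13, 0.08 and 0.10 and were not called. TFE3, another relative, read 0.05. Among 15 measured genes of mTORC1, the kinase complex that holds ULK1 inactive in fed cells, and its controls, 2 rose (TSC2 by 0.45 and RRAGA by 0.51) and 1 fell. The called share of these 15 was 20%, against 22.4% of all genes and 33.8% of genes above the probe median. The gene that fell was DDIT4, an mTORC1 inhibitor induced by stress, which read 8.42, 7.98 and 7.70 in Syy cells, against 8.67, 8.77 and 9.02 in control cells (-0.79, adjusted p = 0.0410). That call was lost without Syy replicates 2 or 3 (adjusted p = 0.120 and 0.0772), without control replicates 1, 2 or 3 (0.0894, 0.113 and 0.130) and on the deposited scale (-0.50, 0.0989).

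MTOR, the kinase of that complex, read 8.40, 8.35 and 8.28 in Syy cells, against 7.99, 7.91 and 7.41 in control cells. It was higher on every Syy array but not called (0.57, adjusted p = 0.0524), and it passed without control replicate 3, the lowest control (0.39, adjusted p = 0.0308). MTOR also passed after median centring, on the deposited scale and among the genes above the probe median. WDR45B, a PI3P-binding relative of WIPI1, read 7.71, 7.58 and 7.48 in Syy cells, against 6.52, 6.93 and 6.54 in control cells, and rose 1.90-fold (adjusted p = 0.00757). VPS39, a subunit of the HOPS complex that tethers autophagosomes to lysosomes, read 8.84, 9.18 and 8.82 in Syy cells, against 8.37, 8.20 and 8.41 in control cells, and rose 1.54-fold (adjusted p = 0.0174). Without control replicates 1, 2 or 3 VPS39 was not called (adjusted p = 0.0590, 0.0660 and 0.0516). The 13 genes of fusion with the lysosome had 3 higher (VPS39, with VPS16 at 0.62 and VPS11 at 0.29) and 1 lower (STX17 at -0.25, from a probe below the probe median). Their called share was 30.8%, against 22.4% of all genes and 33.8% of genes above the probe median. Higher genes were 23.1% of the 13, against 11.0% of all genes and 16.9% of genes above that median.

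**Figure D4:**
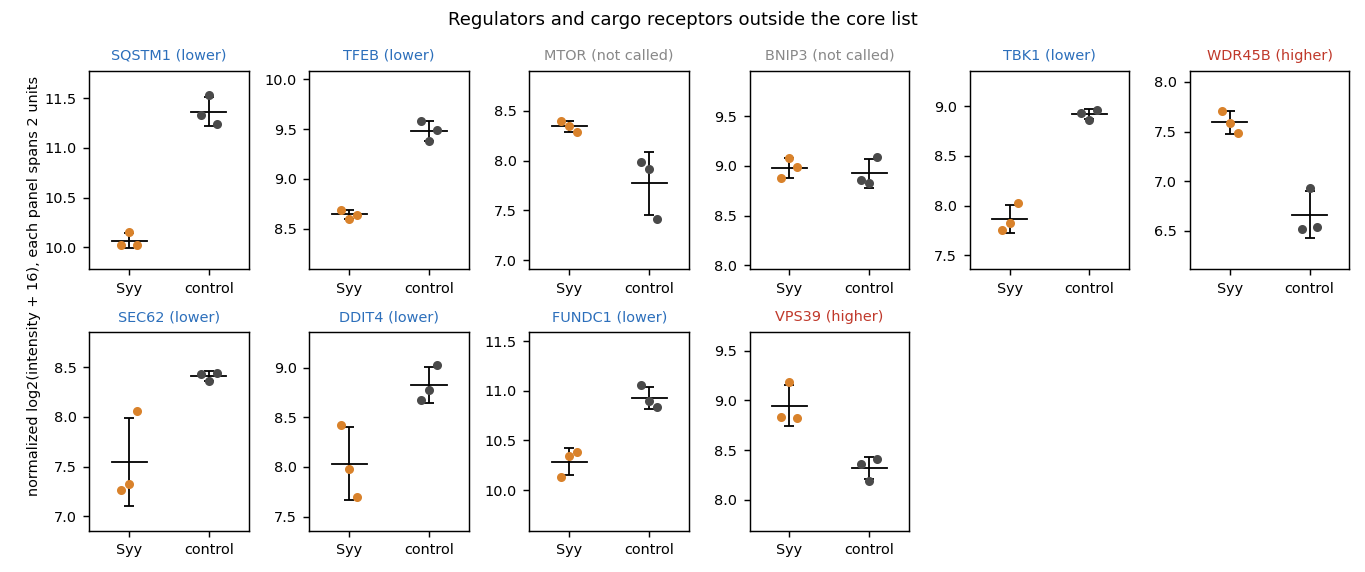
Normalized log2(intensity + 16) of 10 regulators and cargo receptors outside the list of 40 on each Syy array (orange, left) and control array (dark grey, right), with the group mean as a bar and 1 SD as the error bar; every panel spans 2 units. SQSTM1, TFEB, TBK1 and FUNDC1 are low in Syy cells with little scatter, WDR45B and VPS39 are high, and BNIP3 overlaps between groups.

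The direction of each of the 15 called autophagy genes was the same in all alternatives that measured it, but the balance of calls moved with the scaling. After quantile normalization 6 of 15 called genes were higher. Median centring gave 8 higher and 6 lower, and the deposited scale 10 higher and 3 lower. Over all genes, 48.9%, 60.0% and 81.1% of the calls were higher under these scalings. All 6 genes that rose stayed called under each scaling. Of the 9 that fell, ATG101, PIK3C3 and BNIP3L stayed called under each, and 6 were lost under at least 1. Leaving out single arrays left the calls of 8 genes in place: ULK1, BECN1, WIPI1, MAP1LC3B, ATG101, PIK3C3, ATG16L2 and BNIP3L. Without Syy replicate 3, the array with the highest hepatocyte marker sum, 4 of the 40 were called higher and 9 lower. Without both that array and control replicate 2, only WIPI1 and PIK3C3 passed among the 40 (2 arrays a group).

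**Figure D5:**
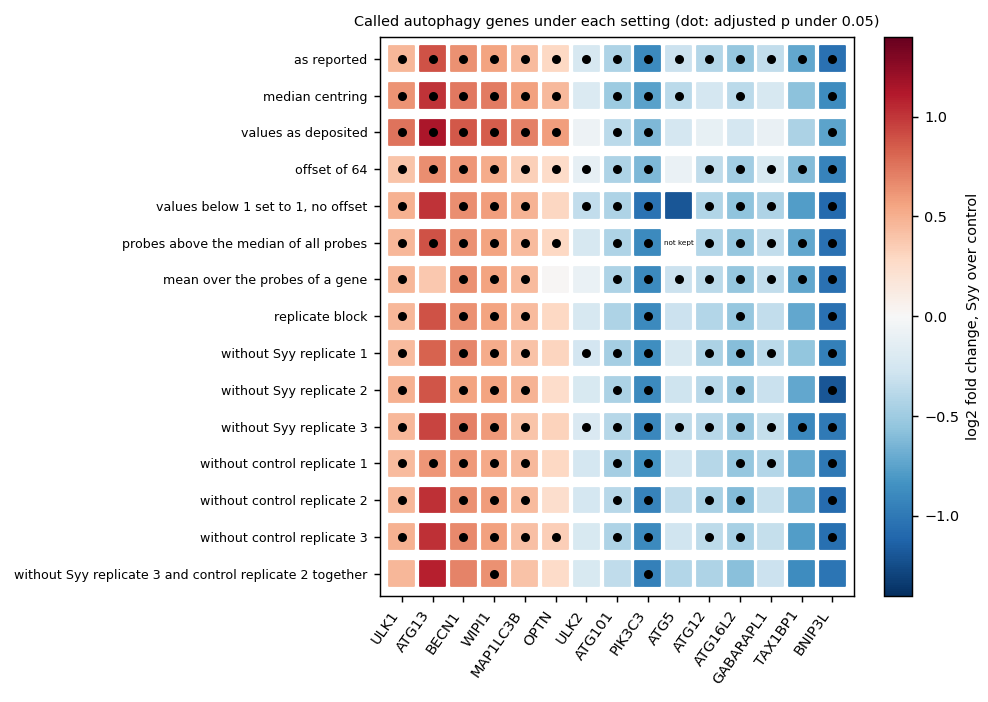
Log2 fold change, Syy over control (colour), of the 15 called autophagy genes under each of the 15 settings, with a black dot where the adjusted p was under 0.05; ATG5 was not kept where only probes above the median were used. No gene changes colour side, and PIK3C3 and WIPI1 carry a dot in every row.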

How the data were processed

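RNA of 3 Syy and 3 control samples of LX2 cells was labelled with Cy5 and measured on 1-channel Phalanx arrays, per the labels. The deposited table holds 31741 probes, each with a linear intensity. Every value of an array was a whole multiple (tolerance 0.05) of 1 factor, which was 0.920 to 1.08, so the authors' values carry a single scaling per array; the sources used here name no scanner software or background method. On at least 1 array 1902 probes were at or below 0.

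Values were computed as log2(value + 16) and quantile normalized. Of the probes, 24740 had 1 platform symbol, 977 several and 6024 none used here. The brightest probe of each gene was tested with limma 3.58.1 in R 4.3.3 (lmFit, eBayes, two-sided, Benjamini-Hochberg over 18365 genes), with no covariate. The steps were tested on simulated data. Spearman correlations of the arrays were 0.973 to 0.977 among Syy, 0.984 to 0.985 among control and 0.968 to 0.977 between groups. The number of arrays limits the precision.

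Alternatives were median centring, values as deposited, other offsets, a filter on dim probes, the mean over probes, a replicate block, and leaving out arrays. When arrays were left out, the probe of each gene stayed the one chosen on 6 arrays. Members, lists, naming rule and alternatives were chosen with earlier results of these data known. All called members and, whatever their values, the ATG8 genes, ULK1, BECN1, ATG5, ATG7, ATG9A, WIPI1, SQSTM1, TFEB, MTOR and BNIP3 are named, with the 8 largest called changes among the other autophagy genes; MITF, TFE3, TSC2, RRAGA, VPS11, VPS16, STX17, RETREG1, NCOA4, RTN3, PHB2 and MAP1LC3B2 were chosen after their values were seen. Promoters are RefSeq's for GRCh38.p14; of several windows of a gene, the one nearest its outer start was taken.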

Additional observations from a re-analysis of the deposited data

How the results depend on the processing

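Counts of calls, given as higher and lower, were 2017 and 2104 for all genes, 6 and 9 for the 40 autophagy genes and 8 and 12 for the other autophagy genes. In the values as deposited they were 3157 and 737, 10 and 3, and 18 and 4. Median centring gave 13 higher and 9 lower among the other autophagy genes. With the replicate block they were 1051 and 852 for all genes, 5 and 3 among the 40, and 3 and 4 among the others. Same-numbered samples did not deviate together (correlations -0.08, -0.08 and -0.03), so the numbers were not taken as pairs. Leaving out 1 array gave 1197 to 1787 higher and 1088 to 1965 lower genes, 4 to 5 higher and 5 to 9 lower of the 40, and 5 to 8 higher and 5 to 10 lower of the others. Without Syy replicate 3 and control replicate 2 together the counts were 566 and 537, 1 and 1, and 2 and 4; fewer samples also mean less power. The cause of the other shifts was not tested. None of the 15 called autophagy genes, nor of the 10 regulators and receptors plotted, changed sign under any alternative run. Of the 25 autophagy genes not called, 7 passed under at least 1 alternative and 13 changed sign in at least 1. Dim probes such as those of ATG5 and ATG4C limit what can be read, and no detection flags were used. The filter on dim probes gave no value for ATG5 and ATG4C.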
